A study of Mus musculus with 12 samples.

Results

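The planar cell polarity core genes, 10 of the 28686 gene symbols in the count table, were examined by symbol in the P6 cochlear sensory epithelium. They are Vangl1, Vangl2, Celsr1, Celsr2, Celsr3, Fzd3, Fzd6, Prickle1, Prickle2 and Ptk7, and all 10 had enough reads to be tested. RNA-seq libraries came from 6 Sox2CreER/+Jag1fl/fl mutants and 6 Sox2+/+ littermate controls (strain label C57BL/6;129SV, which differs from the backgrounds that the study's methods give for the 2 alleles). All pups received tamoxifen at P0 and P1, and the tissue was collected at postnatal day 6. CreER is driven from the Sox2 locus and is active in all supporting cell subtypes. The controls carried no CreER allele and had the Jag1+/fl or Jag1fl/fl genotype, so the mutants differed from them at Sox2 as well as at Jag1, and these differences cannot be told apart. The labels give no litter or sex for a library.

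Planar cell polarity is the alignment of cells within the plane of an epithelium. In the cochlea it is read from the hair bundles, which point the same way on every hair cell. Its core proteins sit at cell borders in opposed complexes: Frizzled with Dishevelled on one side of a junction, Vangl with Prickle on the other, and Celsr cadherins bridging both. Mice with mutations in Vangl2, Celsr1 or Ptk7, or in both Fzd3 and Fzd6, have misoriented hair bundles. JAG1 is a Notch ligand, and Notch acts on transcription through the DNA-binding protein RBPJ.

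No core gene passed the test between genotypes after correction over all genes. In edgeR's quasi-likelihood test, 0 of 10 had an adjusted p under 0.05 in either direction, against 0.108% of the 18459 genes tested that were called higher in mutants and 0.0813% called lower. DESeq2 and limma-voom also called 0 of 10. Over all 18459 genes, DESeq2 called 473 higher and 146 lower, and limma-voom 6 and 13. At an unadjusted p under 0.05, 1 core gene was higher (Celsr3, background 6.52%) and 1 was lower (Prickle2, background 4.04%). The ranges of the genotypes overlapped for all 10 genes, while for 0.997% of tested genes they did not. The median log2 fold change (mutant minus control) of the 10 was -0.06, beside 0.00 for all tested genes. 7 values were negative and 3 were positive. Differences in bulk tissue cannot tell fewer cells of a type from less RNA per cell.

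The deleted gene followed its labels. Jag1 lay at 83.0, 104 and 118 CPM (reads scaled to the size of each library; lowest, median and highest) in controls and at 24.2, 37.5 and 42.9 CPM in mutants. Every mutant was below every control (log2 fold change -1.48, SE 0.13, edgeR adjusted p = 0.000257).

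The promoters of 6 core genes were in the RefSeq set of the GRCm38.p6 build, in 10 windows of 300 bases that run from 250 bases before to 50 bases after a transcript start. Vangl1, Celsr1, Fzd3 and Fzd6 had no entry in that set. The letters TGGGAA, the core of the RBPJ motif, were searched on both strands. They occurred in 3 of the 10 windows, 1 each of Vangl2, Ptk7 and Prickle2, and in 25.6% of 32851 windows of all genes. The longer form GTGGGAA occurred in the Ptk7 window and in 6.38% of all windows. The windows below are those with a match and that of Celsr3, the core gene with the largest fold change. Capitals mark TGGGAA or its reverse complement, and each window is written 5′ to 3′ on the strand of its gene.
Vangl2 promoter (chr1:172027246-172027545, minus strand): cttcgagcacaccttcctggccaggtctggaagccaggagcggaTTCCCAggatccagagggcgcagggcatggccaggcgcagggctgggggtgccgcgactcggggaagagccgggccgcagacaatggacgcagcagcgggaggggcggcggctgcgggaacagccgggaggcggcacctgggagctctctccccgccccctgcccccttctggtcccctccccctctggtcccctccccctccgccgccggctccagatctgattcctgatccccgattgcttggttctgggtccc
Ptk7 promoter (chr17:46629455-46629754, minus strand): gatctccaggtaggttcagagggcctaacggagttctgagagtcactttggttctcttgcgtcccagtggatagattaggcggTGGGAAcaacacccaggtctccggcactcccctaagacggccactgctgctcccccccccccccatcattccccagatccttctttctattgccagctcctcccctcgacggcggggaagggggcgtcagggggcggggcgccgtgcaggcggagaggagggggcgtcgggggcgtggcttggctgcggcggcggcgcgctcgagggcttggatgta
Prickle2 promoter of an internal start (chr6:92534812-92535111, minus strand): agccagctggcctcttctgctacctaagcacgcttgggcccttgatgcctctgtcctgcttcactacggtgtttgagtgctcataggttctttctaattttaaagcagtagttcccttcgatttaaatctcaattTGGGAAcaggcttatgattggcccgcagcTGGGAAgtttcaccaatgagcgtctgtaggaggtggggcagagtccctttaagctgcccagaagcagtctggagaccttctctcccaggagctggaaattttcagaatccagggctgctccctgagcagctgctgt
Celsr3 promoter (chr9:108825795-108826094, plus strand): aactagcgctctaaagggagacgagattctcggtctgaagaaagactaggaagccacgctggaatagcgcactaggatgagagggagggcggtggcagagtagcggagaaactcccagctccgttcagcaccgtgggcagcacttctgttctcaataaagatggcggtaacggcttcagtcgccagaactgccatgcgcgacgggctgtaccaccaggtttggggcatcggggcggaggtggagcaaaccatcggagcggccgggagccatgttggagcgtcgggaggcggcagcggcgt
The match began 206 bases before the start in Vangl2 and 167 bases before it in Ptk7. The whole Vangl2 window lies inside the annotated gene, whose minus strand begins at chr1:172028444. Its start is thus an internal one too, as in the printed Prickle2 window. In the Prickle2 window the matches began 115 and 86 bases before the start. The Celsr3 window held none. Such a match is a run of letters, and binding was not measured. Windows were rich in G and C: 71.3% of bases in Vangl2, 66.0% in Ptk7 and 60.7% in Celsr3, beside a median of 52.7% over all windows. The printed Prickle2 window stood at 51.3%.

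Core genes differed widely in level. Levels were compared per length, as CPM per kilobase of exon (all annotated exons of a gene merged). In controls the order ran from Ptk7 through Fzd6, Vangl2, Celsr2, Celsr1, Vangl1, Prickle1, Prickle2 and Fzd3 to Celsr3. Ptk7, a receptor-like pseudokinase, stood at 33.0 ± 2.56 CPM per kb (SD, n = 6) and Celsr3 at 0.209 ± 0.0462, a 158-fold range. Fzd6 reached 22.5 ± 1.25 CPM per kb and Fzd3 2.22 ± 0.536. Of the Vangl pair, Vangl2 (11.7 ± 0.752) lay above Vangl1 (6.56 ± 0.367). Celsr2 (10.2 ± 0.615) and Celsr1 (8.75 ± 0.824) lay far above Celsr3. Prickle1 (6.13 ± 0.357) exceeded Prickle2 (3.67 ± 0.330).

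Not every step in that order was clear of the spread between mice. Of the 9 neighbouring pairs, 6 had ranges in controls that did not overlap. Vangl2 overlapped Celsr2, Celsr2 overlapped Celsr1, and Vangl1 overlapped Prickle1. Without control 5, 8 pairs did not overlap. The order was the same in mutants. It was also unchanged when the longest transcript replaced the merged exons, under a different scaling of the libraries, and after each control was left out in turn. Ptk7 and Fzd6 together made up the bulk of the summed core level per kb, at 31.5% and 21.4% in controls and 31.3% and 21.5% in mutants.

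**Figure D1:**
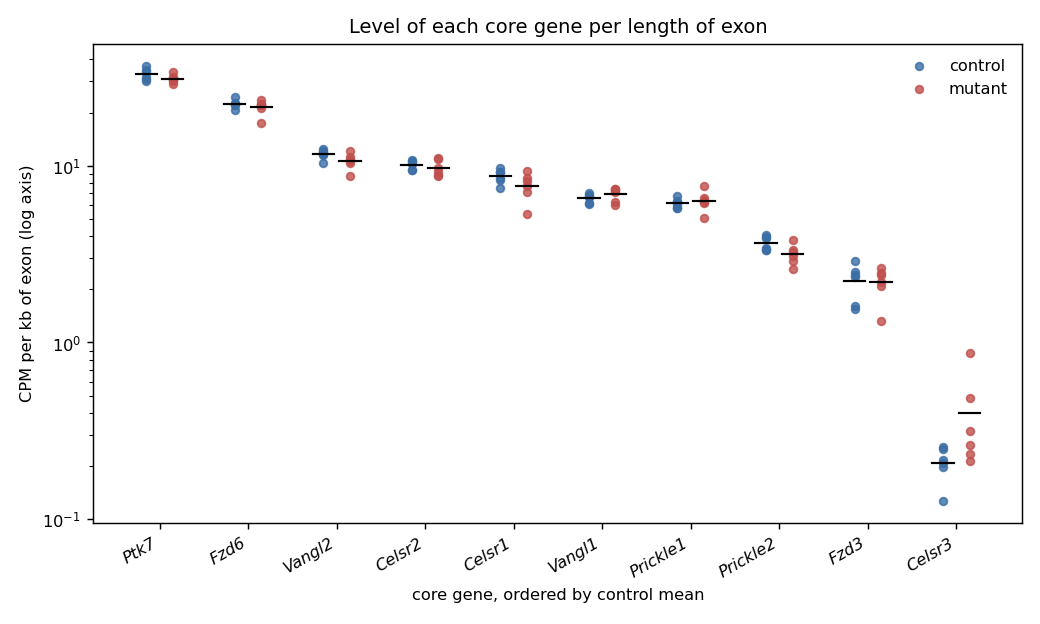
Level of each core gene as CPM per kb of exon on a log axis, ordered by the control mean, with 1 point per mouse and a bar at the mean of each genotype (6 mice each). Ptk7 stands highest at 33.0 in controls, and Celsr3 lies apart from the other genes at 0.209.

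The transmembrane Vangl proteins recruit Prickle to the cell border. Vangl2 (chr1:172000960-172028444, 12 merged exons) lay at 72.2, 82.5 and 87.3 CPM in controls and at 60.8, 75.4 and 85.0 CPM in mutants. Of the mutants, 5 were below the control median, but the ranges overlapped and the log2 fold change of -0.13 was not past the test (SE 0.07, 95% interval -0.29 to 0.03, edgeR adjusted p = 0.603). Without mutant 1 it was -0.08. Without mutant 4 and without control 5 it was -0.17 each time (edgeR unadjusted p = 0.0346 and 0.0456, adjusted 0.448 and 0.486). Vangl1 (chr3:102153583-102204693, 11 merged exons) lay at 43.6, 47.6 and 50.2 CPM in controls and at 43.2, 51.4 and 52.9 CPM in mutants. For Vangl1, 4 mutants exceeded every control and 1 was below every control. The log2 fold change was 0.07 (SE 0.07, 95% interval -0.07 to 0.22, edgeR adjusted p = 0.823).

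The balance of the Vangl paralogues differed between genotypes. The ratio of Vangl2 to Vangl1 reads within each library was 1.74 in controls and 1.51 in mutants. All 6 mutants were below the control median and 4 were below every control. The log2 ratio differed by -0.21, from 0.80 ± 0.08 to 0.59 ± 0.12 (SD, n = 6 each; exact two-sided permutation test, p = 0.0152, adjusted over 6 paralogue ratios 0.0325). Without mutants 1, 2 and 4, which had the highest neuron marker scores (3 mutants then remain), the change was -0.17 and no longer passed (adjusted p = 0.167, exact permutation test).

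The Celsr genes encode large atypical cadherins that link the complexes of neighbouring cells. Celsr3, best known for its part in axon growth and guidance in neurons, had the lowest level and the largest fold change. Counts per library were 49 to 361. Celsr3 (chr9:108826320-108852969, 35 merged exons) lay at 1.53, 2.56 and 3.08 CPM in controls and at 2.57, 3.48 and 10.5 CPM in mutants. All 6 mutants were above the control median, and 4 were above every control. The fold was 1.90 (95% interval 1.17 to 3.10, log2 fold change 0.93, SE 0.33). In edgeR p was 0.0135 before adjustment and 0.261 after it. The exact two-sided permutation test gave p = 0.0346, where 0.00216 is the smallest p that 6 against 6 mice allow.

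Neuron markers were measured beside Celsr3. Of 12 neuron markers, 11 were higher in mutants at an unadjusted p under 0.05 (background 6.52%), and 0 passed the adjusted test. Their summed level was 104 to 254 CPM in controls and 137 to 1327 CPM in mutants. The remaining marker, Syt1, had a negative log2 fold change of -0.21. With means of 74.3 CPM in controls and 64.1 CPM in mutants, it was a large part of the control sum. Mutant 4 held the highest Celsr3 (10.5 CPM) and the highest neuron sum, and mutant 2 followed at 5.88 CPM of Celsr3. The log2 fold change of Celsr3 was 0.53 without mutant 4, 0.28 without mutants 1, 2 and 4 (95% interval -0.18 to 0.75) and 0.06 with neuron and Schwann cell scores in the model (95% interval -0.58 to 0.70). Within genotypes, the correlation of Celsr3 with the neuron sum over the 12 mice was positive (Pearson r = 0.797, permutation p = 0.010, adjusted 0.129 over 90 relations; Spearman rho = 0.720, permutation p = 0.0223, adjusted 0.399). Without the 2 mice farthest from the median of the neuron sum, r was 0.542. Neither value passed the adjusted threshold.

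Celsr3 also had a negative relation with macrophage markers within genotypes (r = -0.832, permutation p = 0.00153, adjusted 0.0344; rho = -0.783, permutation p = 0.00685, adjusted 0.205). It was -0.725 in the 6 controls and -0.910 in the 6 mutants, and -0.665 without the 2 mice farthest from the median. Of 13051 other genes, 12 had a correlation as low. The 7 macrophage markers summed to 305 to 387 CPM in controls and 248 to 331 CPM in mutants, and their part in the Celsr3 values was not tested.

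Celsr1 and Celsr2 did not share the direction of Celsr3. Celsr1 (chr15:85898929-86033777, 35 merged exons) lay at 81.9, 97.9 and 107 CPM in controls and at 58.6, 87.0 and 103 CPM in mutants. Of the mutants, 5 were below the control median and 2 were below every control. Its log2 fold change was -0.19 (SE 0.11, 95% interval -0.43 to 0.05, edgeR adjusted p = 0.642), and -0.10 without mutant 1. Without mutant 3 the Celsr1 value was -0.25 (edgeR unadjusted p = 0.0377, adjusted 0.377). Celsr2 (chr3:108390851-108415552, 31 merged exons) lay at 108, 119 and 125 CPM in controls and at 101, 109 and 127 CPM in mutants. For Celsr2, mutants lay on both sides of the control range, 3 below and 2 above, and the log2 fold change was -0.06 (SE 0.07, 95% interval -0.21 to 0.09, edgeR adjusted p = 0.869).

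Within each library, reads of the other Celsr genes per read of Celsr3 were fewer in mutants. The ratio of Celsr2 to Celsr3 reads was 47.3 in controls and 26.6 in mutants, with 6 of 6 mutants below the control median (log2 difference -0.83, exact two-sided permutation p = 0.00649, adjusted 0.0325). For Celsr1 to Celsr3 it was 38.8 and 19.8 (log2 difference -0.97, exact permutation p = 0.0216, adjusted 0.0325), again with 6 of 6 mutants below the control median. The adjusted p of Celsr1 to Celsr3 was 0.0552 without control 4 and 0.0519 without control 5 (exact permutation tests). Without mutants 1, 2 and 4 these log2 differences were -0.43 and -0.39, and neither passed (adjusted p = 0.167 and 0.268, exact permutation tests). The ratio of Celsr1 to Celsr2 was 0.821 in controls and 0.746 in mutants (exact permutation p = 0.292, adjusted 0.351). Without mutant 3 its adjusted p was 0.0442 (exact permutation test).

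The Frizzled receptors bind Wnt ligands and recruit Dishevelled. Fzd6 (chr15:39006034-39038188, 9 merged exons) lay at 100.0, 108 and 119 CPM in controls and at 83.7, 107 and 114 CPM in mutants. Mutant 1 was the lowest, and the other 5 mutants lay between 103 and 114 CPM, inside the control range. The log2 fold change was -0.06 (SE 0.07, 95% interval -0.22 to 0.09, edgeR adjusted p = 0.860). On 3.15% of its exon bases it shares the locus with Gm26704 on the other strand, and reads there cannot be told apart without strand. Fzd3 (chr14:65192449-65262463, 8 merged exons) had the widest relative spread of the core genes in controls. It lay at 19.8, 30.5 and 37.1 CPM in controls, a coefficient of variation of 24.2%, and at 17.0, 29.3 and 33.8 CPM in mutants. Controls 4 and 5 and mutant 1 were the low mice. The log2 fold change of -0.02 (SE 0.18, 95% interval -0.40 to 0.36, edgeR adjusted p = 0.990) turned positive, 0.09, without mutant 1. The ratio of Fzd3 to Fzd6 was 0.256 in controls and 0.266 in mutants (exact permutation p = 0.766, adjusted 0.766).

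The Prickle proteins are cytoplasmic and bind Vangl. Prickle2 (chr6:92370908-92706155, 12 merged exons) lay at 28.9, 31.5 and 35.1 CPM in controls and at 22.6, 27.3 and 32.8 CPM in mutants. Of the mutants, 5 were below every control, and mutant 2 stood inside the control range. Its log2 fold change was -0.22 (SE 0.09, 95% interval -0.41 to -0.03). In edgeR p was 0.0286 before adjustment and 0.377 after it, and the exact two-sided permutation test gave p = 0.0325. The unadjusted value no longer passed 0.05 without mutant 1 (log2 fold change -0.17, edgeR unadjusted p = 0.0607). The same held without mutant 5, where the edgeR unadjusted p was 0.0623, and without control 1, 2 or 6, where it was 0.0523, 0.0619 and 0.0564. The log2 fold change was -0.24 without mutants 1, 2 and 4. With neuron and Schwann cell scores in the model the log2 fold change was -0.36 (95% interval -0.67 to -0.06, edgeR unadjusted p = 0.0227). Schwann cell markers summed to 537 to 1542 CPM in controls and 1315 to 6376 CPM in mutants.

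Prickle1 (chr15:93499114-93595891, 9 merged exons) lay at 25.0, 26.6 and 29.1 CPM in controls and at 21.9, 27.4 and 33.3 CPM in mutants. The mutant range enclosed that of the controls, with mutant 1 lowest and mutant 2 highest (log2 fold change 0.05, SE 0.08, 95% interval -0.13 to 0.23, edgeR adjusted p = 0.928). The ratio of Prickle1 to Prickle2 reads was 0.843 in controls and 1.01 in mutants. All 6 mutants were above the control median and 3 were above every control. The log2 ratio was higher by 0.26, from -0.25 ± 0.18 to 0.01 ± 0.10 (SD, n = 6 each; exact two-sided permutation test, p = 0.0173, adjusted 0.0325). Without mutants 1, 2 and 4 it was 0.30 and did not pass (adjusted p = 0.167, exact permutation test).

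Ptk7 (chr17:46564471-46629504, 20 merged exons), the most highly expressed core gene, lay at 163, 177 and 198 CPM in controls and at 156, 166 and 183 CPM in mutants. Of the mutants, 5 were below the control median and 2 were below every control. The log2 fold change was -0.09 (SE 0.06, 95% interval -0.22 to 0.04, edgeR adjusted p = 0.722). Intervals were narrow for most core genes: the lower limit of the Ptk7 fold was 0.858 and that of Vangl2 was 0.817, while for Fzd3 the interval ran from 0.756 to 1.29.

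**Figure D2:**
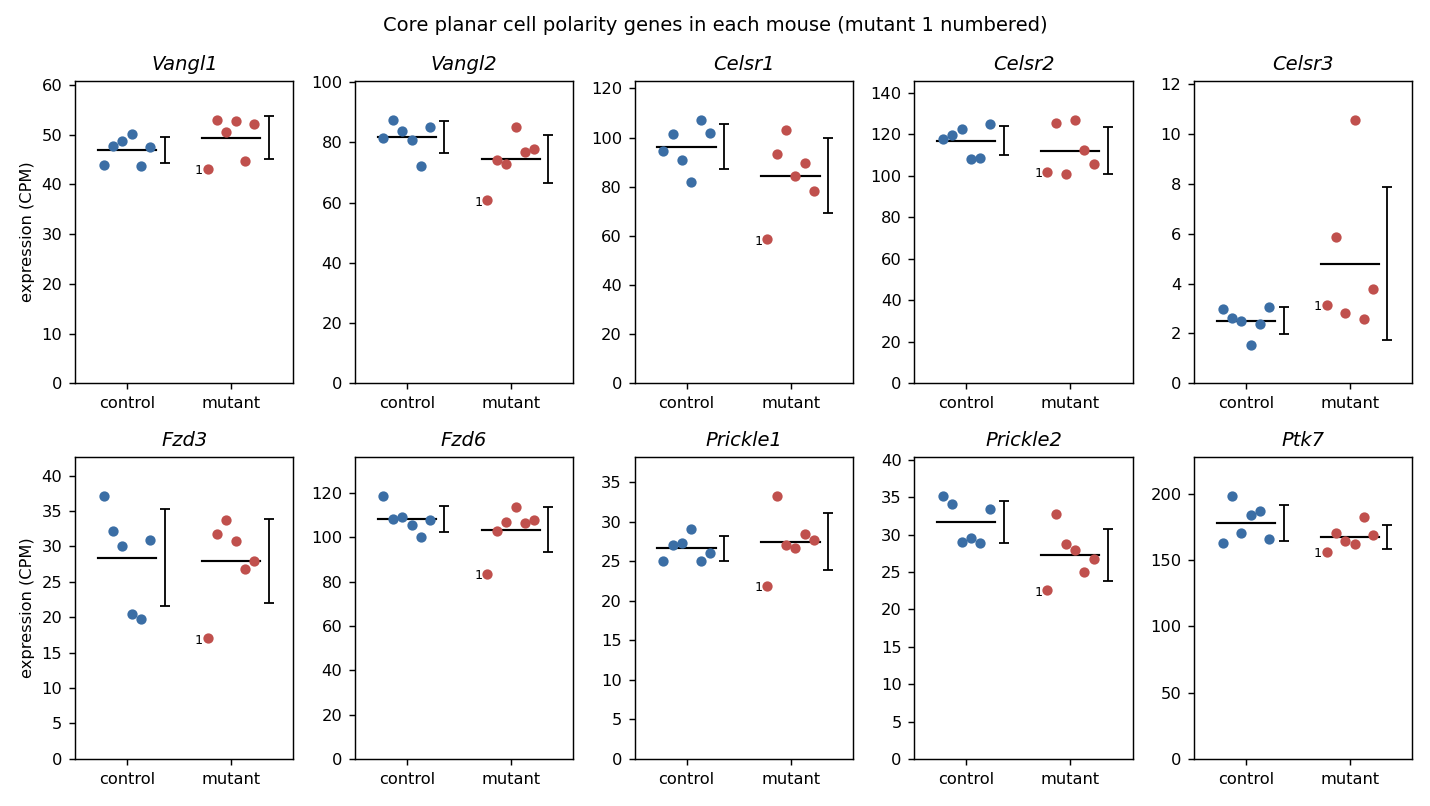
Expression (CPM, linear axes from 0) of the 10 core genes in each of 6 control and 6 mutant mice, with a bar at the genotype mean and an error bar of 1 SD beside it. Mutant 1, numbered, is the lowest of all 12 mice for 8 of the 10 genes, and Celsr3 reaches 10.5 CPM in mutant 4.

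Mutant 1 stood apart from the other mice. It was the lowest of the 12 mice for 8 core genes, the exceptions being Celsr2 and Celsr3. Its median log2 deviation from the control mean over the 10 genes was -0.32, while the other 11 mice lay between -0.11 and 0.09. Its hair cell marker sum, 367 CPM, was the lowest of all mice (controls 429 to 487 CPM, other mutants 464 to 524 CPM). Its Schwann cell marker sum, 6376 CPM, was the highest. Its mesenchyme marker sum, 9065 CPM, and its Jag1 level, 24.2 CPM, were the lowest of all mice. The share of all genes that were lowest in this mouse was not counted, so the rank is not shown to be particular to core genes.

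The variation of core genes between mice was compared pair by pair. After subtraction of genotype means, 41 of the 45 pairs of core genes had a positive Pearson r over the 12 mice, with a median of 0.477. Over all pairs of 13059 genes, 50.2% were positive and the median was 0.002. Values ran from -0.305 (Celsr3 with Ptk7) to 0.858 (Vangl2 with Fzd6). At a permutation p of Pearson r under 0.05 there were 9 pairs, and 0 passed after adjustment over the 45. By Spearman rho, Fzd3 with Prickle2 passed narrowly (permutation test, adjusted p = 0.0499). Without mutant 1, 29 of 45 were positive and the median was 0.237, so the positive values rested in part on that mouse (50.2% over all genes). Vangl2 with Fzd6 had a permutation p of 0.00466 (adjusted 0.0699; rho = 0.587, permutation p = 0.0588, adjusted 0.431), and r was 0.369 without the 2 mice farthest from the median. Fzd3 with Fzd6 (r = 0.834, permutation p = 0.00161, adjusted 0.0565) and Fzd3 with Prickle2 (r = 0.805, permutation p = 0.00251, adjusted 0.0565) were the next strongest. Their r without the 2 farthest mice was 0.529 and 0.651, and rho was 0.622 and 0.867 (permutation p = 0.0375 and 0.00111, adjusted 0.422 and 0.0499). Celsr2 with Celsr3 reached 0.802 (permutation p = 0.00669, adjusted 0.0753; rho = 0.839, permutation p = 0.00483, adjusted 0.109) and was 0.793 without mutant 1. Ptk7 had r with the other core genes between -0.305 and 0.447.

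Some core genes followed cell type markers between mice. Of 90 relations between a core gene and the summed level of a marker list, 4 passed an adjusted p under 0.05. Each sum added the CPM of its markers, so the markers with most reads weighed most. Myo6 alone had a mean of 318 CPM in controls, where the hair cell sum was 429 to 487 CPM. Which markers carried a relation was not tested. Fzd6 rose and fell with hair cell markers (r = 0.958, permutation p = 0.00025, adjusted 0.0225; rho = 0.811, permutation p = 0.00384, adjusted 0.173). Its r was 0.888 in the 6 controls, 0.978 in the 6 mutants, 0.840 without mutant 1 and 0.801 without the 2 mice farthest from the median. Of 13050 other genes, 4 had a correlation with the hair cell sum as high as that of Fzd6. For Vangl2 the relation was also positive (r = 0.911, permutation p = 0.00099, adjusted 0.0330; rho = 0.734, permutation p = 0.00949, adjusted 0.214), with r of 0.669 in controls, 0.793 without mutant 1 and 0.697 without the 2 farthest mice. A correlation as high was found for 0.628% of genes. Fzd3 had r = 0.776 with the hair cell sum, reached by 9.54% of genes, and did not pass (permutation p = 0.00760, adjusted 0.114; rho = 0.490, permutation p = 0.108, adjusted 0.746).

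Vangl1 followed mesenchyme markers (r = 0.824, permutation p = 0.00110, adjusted 0.0330; rho = 0.832, permutation p = 0.00053, adjusted 0.0477). Its r was 0.764 in controls, 0.939 in mutants, 0.770 without mutant 1 and 0.853 without the 2 farthest mice, and 9 of 13049 other genes had a value as high. With the hair cell sum Vangl1 had r = 0.505, a value that 26.2% of genes reached, and -0.064 without mutant 1. Vangl2 with the mesenchyme sum had r = 0.594, reached by 4.49% of genes, and 0.417 without mutant 1. Neither relation passed. Prickle1 also leaned to mesenchyme without passing (r = 0.696, permutation p = 0.00576, adjusted 0.104; rho = 0.671, permutation p = 0.0266, adjusted 0.399). The mesenchyme sum ran from 9654 to 11802 CPM in controls and from 9065 to 10704 CPM in mutants. Col1a2 alone had a mean of 5780 CPM in controls and 5311 CPM in mutants. The 10 hair cell markers summed to 429 to 487 CPM in controls and 367 to 524 CPM in mutants. Of these markers, 0 differed at an unadjusted p under 0.05 (backgrounds 6.52% higher and 4.04% lower). The part of these cell types in the Vangl2 to Vangl1 ratio was not tested.

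**Figure D3:**
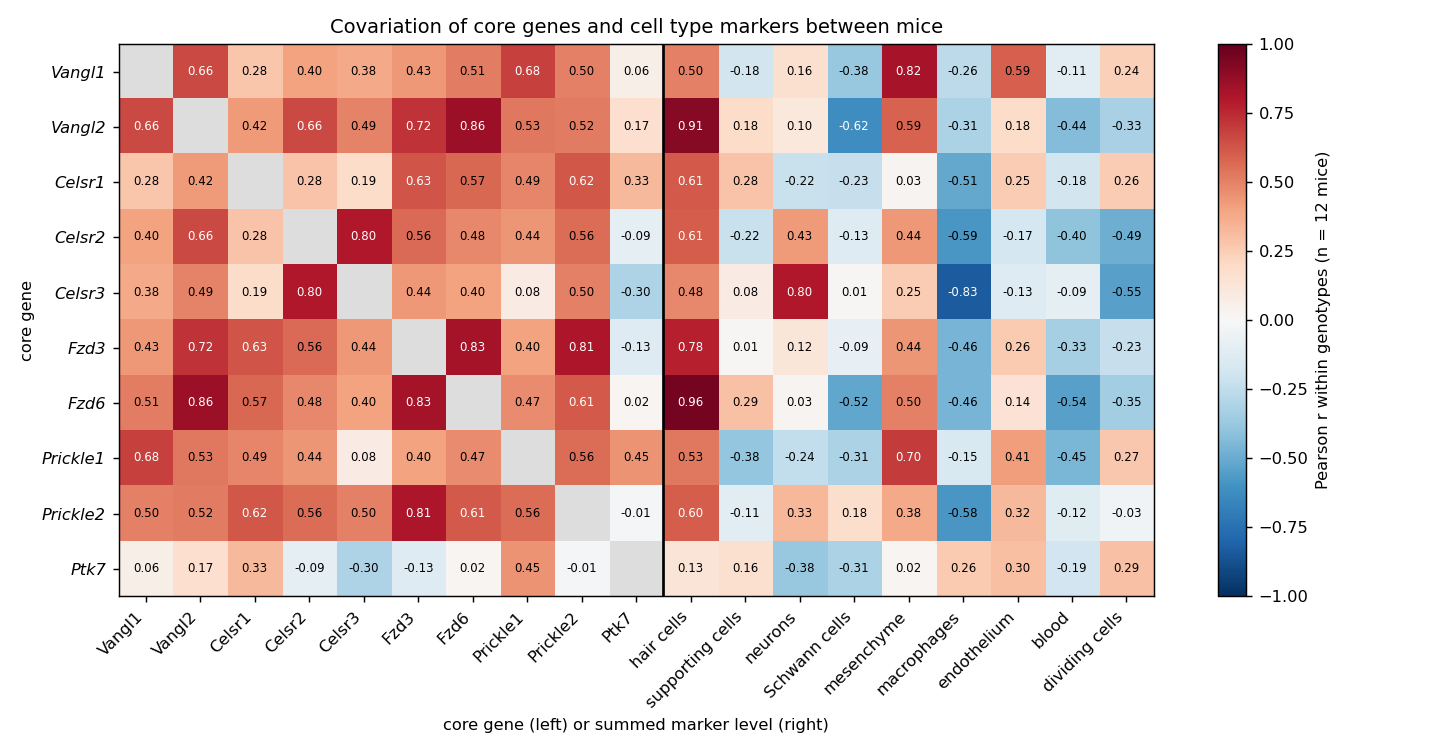
Pearson r between core genes (left of the line) and between core genes and the summed levels of 9 marker lists (right), after subtraction of genotype means, over 12 mice. The relations past the adjusted threshold are Fzd6 and Vangl2 with hair cells (0.958 and 0.911), Vangl1 with mesenchyme (0.824) and Celsr3 with macrophages (-0.832).

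**Figure D4:**
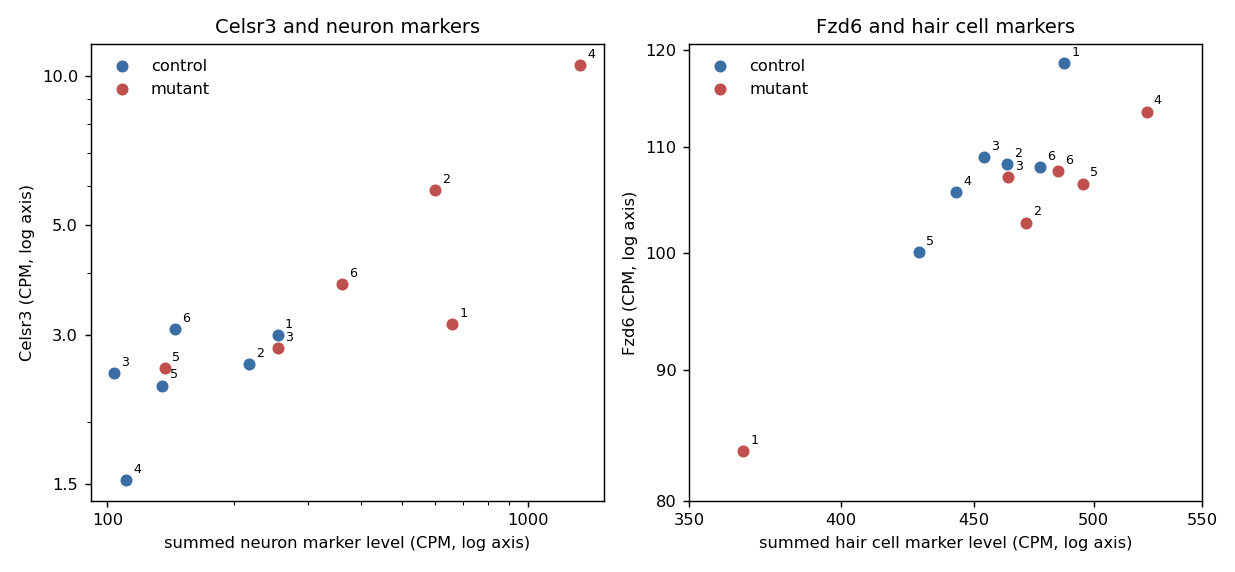
Left, Celsr3 against the summed neuron marker level, and right, Fzd6 against the summed hair cell marker level (CPM, log axes), with 1 numbered point per mouse. Mutant 4 has the highest Celsr3 (10.5 CPM) and neuron sum (1327 CPM), and mutant 1 has the lowest Fzd6 (83.7 CPM) and hair cell sum (367 CPM).

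The genes most alike to each of 7 core genes across the 12 mice were sought among 13058 genes, as a description. Nearest to Fzd6 were Ptprz1, Ankib1 and Map9 (r = 0.966 to 0.968), and nearest to Fzd3 were Btbd7, Zyg11b and Atm (0.980 to 0.985). Vangl2 was most like Ankrd42, Plod2 and Rnf180 (0.958 to 0.967). Celsr3 was closest to Cpeb1, Thsd7b and Map3k9 (0.963 to 0.968), and Celsr2 to Nyap1, Inpp4a and Setd1a (0.915 to 0.956). For Celsr1 they were Fam198a, Cramp1l and Nup210 (0.888 to 0.899), and for Ptk7 they were Lrrc47, Tmem200c and C1s1 (0.814 to 0.902).

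No gene of the wider pathway passed the adjusted edgeR test, and at an unadjusted p more were lower than higher in mutants. Of 61 further planar cell polarity genes, 60 could be tested (Prickle4 had 1 to 7 reads) and 0 had an edgeR adjusted p under 0.05. DESeq2 called 2, Gpc4 and Fzd7, both lower in mutants, and limma-voom called 0. Over all 18459 genes tested, DESeq2 called 473 higher and 146 lower, and limma-voom 6 and 13. At an unadjusted p under 0.05, 1 gene was higher and 5 were lower (backgrounds 6.52% and 4.04% of all genes tested). The median log2 fold change was -0.03, with 17 positive and 43 negative values, beside 49.1% negative over all genes tested.

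The list of Wnt ligands, Frizzled receptors and co-receptors held 14 genes. All 14 had a negative log2 fold change (49.1% of all genes tested), with a median of -0.14, and 4 were lower at an unadjusted p under 0.05 (background 4.04%). Marker medians in the same fit were -0.15 for supporting cells, -0.14 for mesenchyme, -0.20 for macrophages, -0.09 for endothelium and -0.74 for blood. Those of hair cells and dividing cells were 0.005 and 0.007, and those of neurons and Schwann cells were 2.63 and 1.59. The part of these cell types in the Wnt values was not tested. Gpc4, a glypican that acts as a Wnt co-receptor, lay at 40.01, 41.3 and 44.4 CPM in controls and at 27.9, 33.7 and 37.6 CPM in mutants. Every mutant was below every control (log2 fold change -0.32, SE 0.07, edgeR unadjusted p = 0.000331, adjusted p = 0.0754). The receptor Fzd7 lay at 127, 131 and 149 CPM in controls and at 105, 113 and 124 CPM in mutants, again with no overlap (log2 fold change -0.25, SE 0.06, edgeR unadjusted p = 0.00117, adjusted p = 0.0954). Without mutant 5 both passed in edgeR, with adjusted p of 0.0215 for Gpc4 and 0.0442 for Fzd7. That setting called 316 higher and 40 lower of 18422 genes tested, against 20 and 15 of 18459 with all mice. Gpc4 and Fzd7 were named after their values were seen. Ror2, a receptor for Wnt5a, stood at 6.94 ± 0.721 CPM in controls and 5.55 ± 0.718 in mutants (log2 fold change -0.32, edgeR adjusted p = 0.212). Wnt7a stood at 18.3 ± 1.39 and 15.9 ± 1.51 CPM (log2 fold change -0.20, edgeR adjusted p = 0.335). Wnt5a, the ligand tied most closely to planar polarity in the cochlea, stood at 523 ± 48.3 and 514 ± 59.3 CPM (log2 fold change -0.02, edgeR adjusted p = 0.969).

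Cytoplasmic partners of the core complex did not pass the test in either direction. The Dishevelled genes Dvl1, Dvl2 and Dvl3 had log2 fold changes of -0.04, -0.06 and -0.03, and Ankrd6, the Diego homologue, had -0.06 (edgeR adjusted p = 0.857 to 0.985 over these 4). In the Fat and Dachsous system, which supplies direction over longer distances, Fat4 had 0.15 and Dchs1 had -0.14 (edgeR adjusted p = 0.873 and 0.566). The formin effector Daam1 had 0.03 and the scaffold Scrib -0.02 (edgeR adjusted p = 0.967 and 0.955). Of 13 effectors and 5 trafficking partners, 0 had an unadjusted p under 0.05 (backgrounds 6.52% higher and 4.04% lower). Lists this short hold few such genes at those shares.

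The machinery that places the hair bundle within each hair cell was listed with 17 genes. At an unadjusted p under 0.05, 1 was higher (Kif3a) and 1 was lower (Gnai2), both named after their values were seen (backgrounds 6.52% and 4.04%). The median log2 fold change was -0.01. Gpsm2, which positions the kinocilium with Gnai3, had 0.10 and Gnai3 had 0.10 (edgeR adjusted p = 0.688 and 0.772). Emx2, a transcription factor tied to hair cell orientation, had -0.10 (edgeR adjusted p = 0.867).

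**Figure D5:**
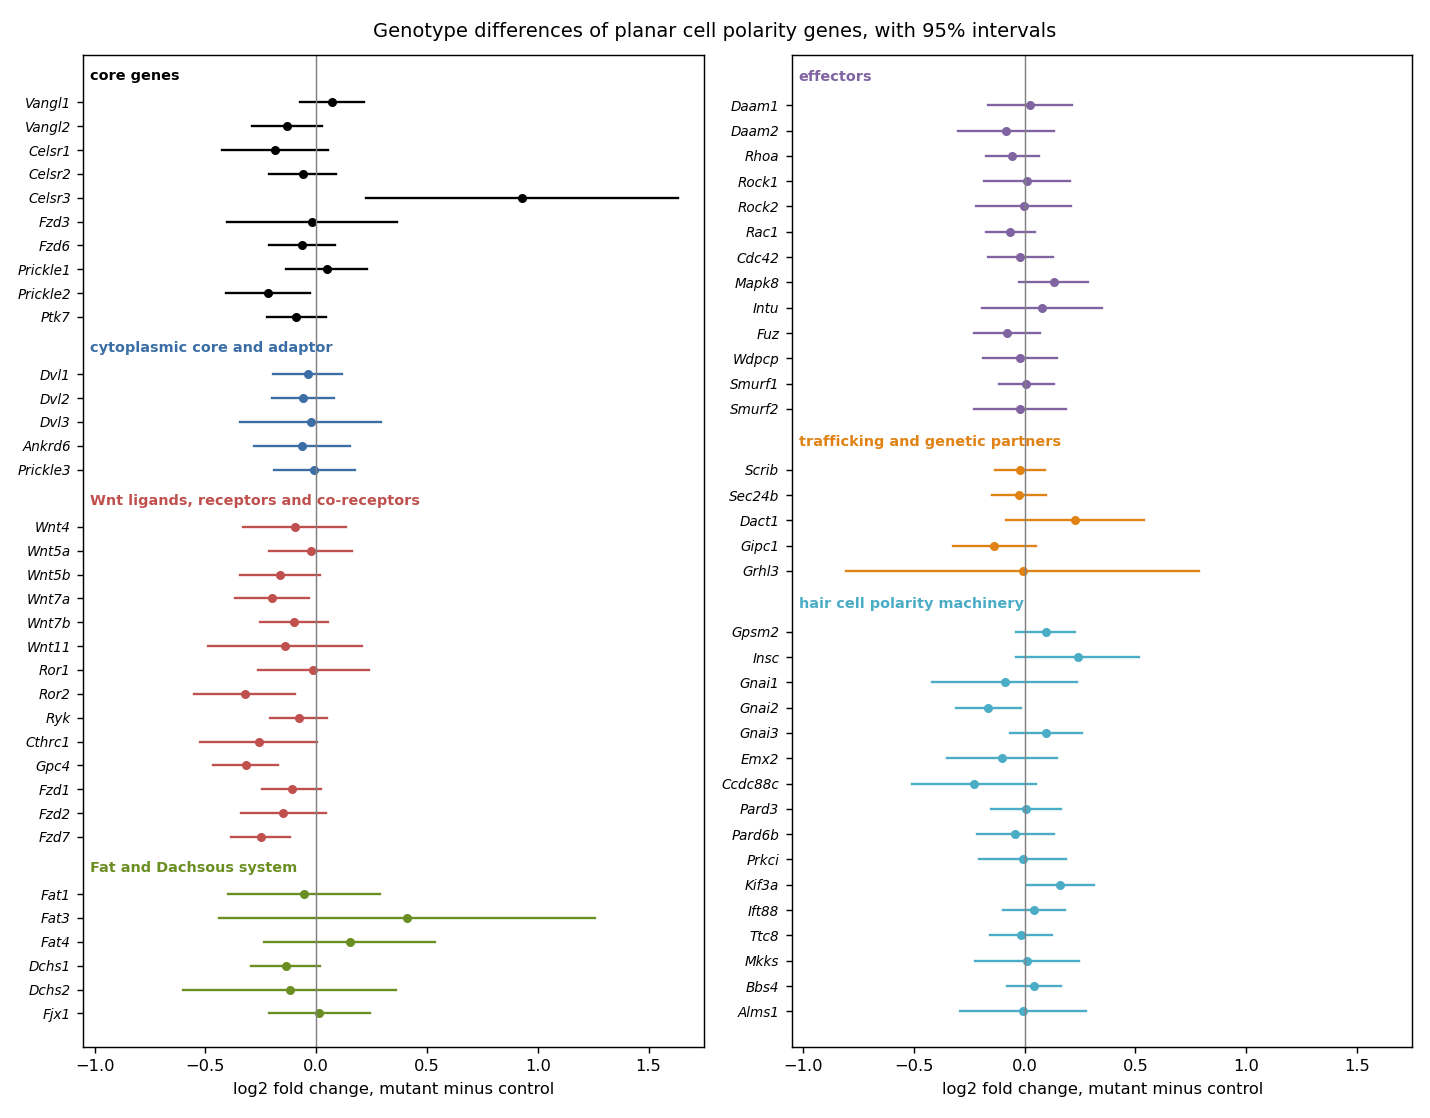
Log2 fold changes (mutant minus control, edgeR) with 95% intervals for the 10 core genes and all but 1 of the 60 further planar cell polarity genes tested, coloured by role. Among the core genes only the intervals of Celsr3 (0.23 to 1.63) and Prickle2 (-0.41 to -0.03) leave out 0, and all 14 Wnt ligands, receptors and co-receptors lie to the left of 0.

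Total counts were 28498549 to 34430252 in controls and 31899265 to 36134983 in mutants, so each core gene except Celsr3 was covered by at least 556 reads in every library. Hair cell and supporting cell markers were all detected, and mesenchyme, blood vessel and blood markers were present too. Of the 12 Schwann cell markers, 11 were higher in mutants at an unadjusted p under 0.05 (background 6.52%). Of the 10 supporting cell markers, 3 were lower (background 4.04%): S100a1, Tectb and Sox2 (Sox2 33.9 and 24.8 CPM, edgeR unadjusted p = 0.00406). The Sox2 locus carries the CreER allele in mutants only, and the part of that allele in the Sox2 level was not tested. The log2 fold changes of S100a1 and Tectb were -0.32 and -0.30. Of the 10, only Prox1 had a positive value (0.19). Replicates came from separate mice, and no pair of libraries within a genotype agreed within sampling noise.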

How the data were processed

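Per the labels, single-end reads of 100 nt (RNA with RIN 9.7 to 10) were processed with Trimmomatic 0.32, STAR 2.4.2a and HTSeq 0.9.1 on GRCm38.p4, and the authors deposited raw read counts per gene symbol. The annotation and strand setting are not given in the sources used here. A deposited DESeq2 1.10.1 comparison (mean counts, fold changes, p-values) was not used. The 18459 of 28686 genes whose mean count reached 5 were tested with edgeR 4.0.16 (R 4.3.3; TMM, robust quasi-likelihood) with Benjamini-Hochberg adjustment, at 0.05. CPM used TMM-scaled library sizes. Single genes were also tested by exact permutation of log2(CPM + 0.1), and paralogue ratios by exact permutation of log2 ratios of counts + 0.5 (Python 3.11.15, SciPy 1.17.1). Correlations used log2 CPM (prior count 2) and the log2 of summed marker CPM, with genotype means removed and 100000 permutations within genotypes. Lengths and gene coordinates came from GENCODE M21 (GRCm38), promoters from RefSeq (GRCm38.p6). The named genes were the core genes, Jag1, 15 genes of the wider list taken for their known role (1 of them enters the counts only and is not reported here), any of that list called after adjustment, and for 7 core genes the 3 most correlated genes of mean count 100 or more. Gpc4, Fzd7, Kif3a and Gnai2 fall outside that rule and were named after their values were seen. The core genes, the wider list and the marker lists were chosen with earlier results of these data known. Alternatives were DESeq2 1.42.0, limma-voom 3.58.1, other scaling and filters, a replicate block, marker scores as covariates and leaving out mice. The tests were tried on simulated data.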

Additional observations from a re-analysis of the deposited data

Results flagged for a closer look

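Of 34 sets of 6 mice examined (each core gene, Jag1 and each paralogue ratio, by genotype), 2 held a mouse that lay far from the others by Dixon's criterion, which chance gives in about 5% of sets. Fzd6 in mutant 1 was 83.7 CPM, while the other 5 mutants lay between 103 and 114 CPM. The same mouse had the lowest hair cell marker sum (367 CPM). The log2 ratio of Celsr2 to Celsr3 in control 4 was 6.13, while the other controls lay between 5.29 and 5.60. That library held 49 Celsr3 reads, the fewest of the 12.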

How the results depend on the processing

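None of the 10 core genes was called under any of 20 alternatives, and Celsr3 stayed positive and Prickle2 negative in all of them (log2 fold change 0.06 to 1.06 and -0.36 to -0.17). Calls over all genes, 20 higher and 15 lower in mutants, were 473 and 146 with DESeq2, 6 higher with limma-voom, 36 higher without a filter on low counts, and 0 higher and 1 lower with neuron and Schwann cell scores as covariates. Leaving out single mice gave 4 to 316 higher and 8 to 40 lower, the largest counts without mutant 5. Jag1 had an adjusted p of 0.0765 with the scores as covariates (log2 fold change -1.42). Of the wider list, 2 genes were called by DESeq2, and 0 to 2 when single mice were left out. Directions of small values turned: the log2 fold change of Fzd3 ran from -0.105 to 0.0886 and that of Prickle1 from -0.0146 to 0.104 when single mice were left out, and that of Fzd3 was 0.0565 without mutants 1, 2 and 4. When single mice were left out, the log2 differences were -1.15 to -0.71 for Celsr1 to Celsr3, -0.229 to -0.0643 for Celsr1 to Celsr2 and -0.0259 to 0.130 for Fzd3 to Fzd6, and 0 to 4 pairs of core genes passed the correlation test. Without mutants 1, 2 and 4, a choice made after seeing the data, the log2 differences were -0.17 for Vangl2 to Vangl1, 0.0395 for Celsr1 to Celsr2, -0.39 for Celsr1 to Celsr3, -0.43 for Celsr2 to Celsr3 and 0.30 for Prickle1 to Prickle2, none of which passed. The cause was not tested. Depth limits Celsr3, with 49 to 361 reads.

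With the replicate number as a block (replicate block), 115 genes were called higher and 16 lower, and 0 core genes. Under the block the log2 fold change of Celsr3 was 0.74 (95% interval -0.03 to 1.52, edgeR unadjusted p = 0.0588). The paired test of the ratios, which compares same-numbered mice, gave an adjusted p of 0.188 for each of Vangl2 to Vangl1 (-0.21), Celsr1 to Celsr3 (-0.97), Celsr2 to Celsr3 (-0.83) and Prickle1 to Prickle2 (0.26), by exact sign-flip permutation. Same-numbered mice share only a number in the labels, and their deviations correlated between -0.19 and 0.27. Of the controls, 2 of 6 correlated best with the mutant of their own number.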
